A study of Mus musculus with 6 samples.

Results

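The genes of phase I metabolism on this array were 75 of 107 annotated to these enzyme families: cytochromes P450, flavin-containing monooxygenases (Fmo), aldehyde and alcohol dehydrogenases (Aldh, Adh), aldo-keto reductases (Akr1), carboxylesterases (Ces), carbonyl reductases (Cbr) and epoxide hydrolases (Ephx). A gene was taken by the start of its symbol, Cyp51 was left out, and 1 probe per gene was used where at least 4 of 6 arrays had a value. The 75 members consisted of 34 P450, 3 Fmo, 15 Aldh, 3 Adh, 10 Akr1, 4 Ces, 3 Cbr and 3 Ephx genes, out of 9774 genes tested. Lung RNA of 6 individual C57 mice, sensitized to ovalbumin (OVA) and then challenged with it, was amplified and hybridized on two-colour arrays, 1 mouse an array. The other channel always held the same reference, an amplified lung RNA pool of control C57 mice. The labels do not give age, sex, dose, timing, the treatment of the controls or the number of mice in the pool.

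Values are the deposited log ratios, taken as log2 and centred on each array's median; were they natural logarithms, every fold would be larger. The sample titles read OVA mouse vs control pool, but do not state which channel is on top of the ratio. Signs are therefore printed as deposited, and no side is called higher in OVA lungs. For orientation, the mucous cell genes Clca1 and Muc5ac averaged -3.06 ± 1.95 and -2.63 ± 1.70 (SD, n = 6). A member with a positive mean therefore lay on the opposite side from the means of these genes. In mouse 3, however, Clca1 and Muc5ac were themselves positive, at 0.84 and 0.22. A gene passed the threshold when its mean ratio differed from 0 at an adjusted p under 0.05 (limma, Benjamini-Hochberg over 11629 probes). All ratios share 1 control pool, so the test covers the spread between OVA mice and not that between control mice. The number of arrays limits the precision.

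Phase I enzymes add or expose a reactive group on foreign compounds, fatty acids, steroids and retinoids, mostly in the endoplasmic reticulum. In the mouse lung, club cells of the small airways are rich in P450s, flavin-containing monooxygenases and reductases, and naphthalene injures these cells because Cyp2f2 turns it into an epoxide. Epoxide hydrolases open such epoxides, and aldehyde dehydrogenases, reductases and esterases act on the carbonyls and esters of the same compounds.

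In all, 23 of the 75 members passed the threshold (30.7%), against 24.4% of all probes tested. They were unevenly split by sign: 20 members were positive (26.7%, against 12.0% of all probes) and 3 were negative (background 12.3%). With a floor of 1.5-fold there were 15 members, all positive, against 4.88% of probes on either side, 1.77% on the positive and 3.11% on the negative one. The median of the 75 means was 0.044, against -0.0033 over all probes, which centring the arrays keeps near 0. Of the 75 means, 53 were above 0 and 22 below. Of the 58 members measured in every mouse, 18 were positive in all 6 and 3 were negative in all 6, where 16.0% and 14.3% of all such probes were.

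**Figure D1:**
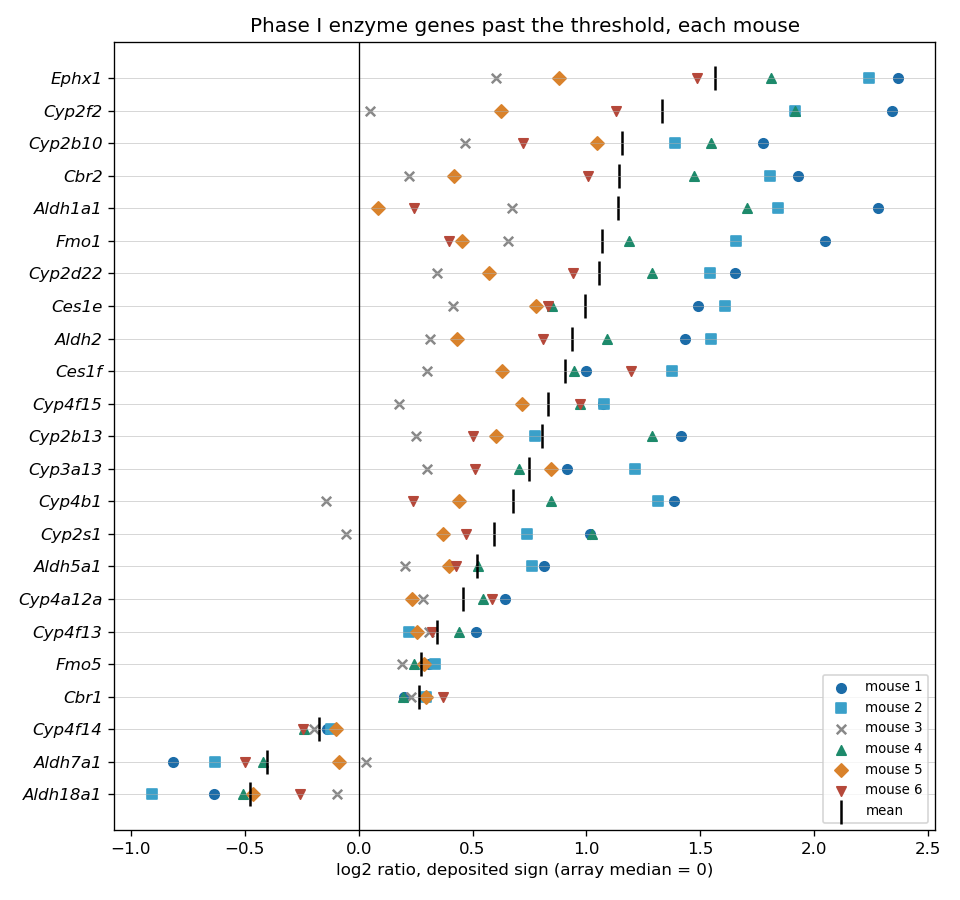
Log2 ratio of each mouse (symbols) and mean (bar) for the 23 members past the threshold, with the deposited sign on the x axis and genes down the y axis. The 20 positive genes run from Cbr1 at 0.26 to Ephx1 at 1.56, and mouse 3 is often nearest to 0.

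**Figure D2:**
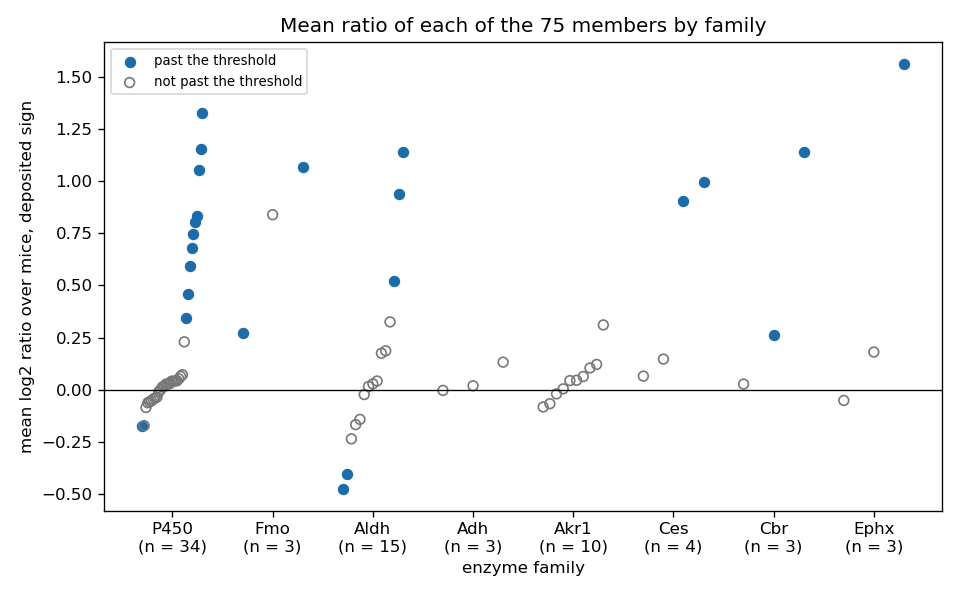
Mean log2 ratio (y axis, deposited sign) of each of the 75 members by enzyme family (x axis); filled points passed the threshold. The Adh and Akr1 members have only open points, between -0.083 and 0.31.

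Promoters are shown for 4 of the members described first. Cyp2b10 and Cyp2b13 are closely related genes next to each other, while Cyp2f2 and Ephx1 had the 2 largest means. RefSeq windows (GRCm38.p6) were found for 57 of the 75 members, and the 250 bases before the transcript start are printed 5′ to 3′ on the strand of the gene. Capitals mark matches on either strand to the dioxin response element core GCGTG, the nuclear receptor half-site AGGTCA, the C/EBP motif TTGCNNAA or the antioxidant response element core TGACNNNGC. The windows are chr7:25897408-25897657 (plus strand) for Cyp2b10, chr7:26061245-26061494 (plus) for Cyp2b13, chr7:27119705-27119954 (plus) for Cyp2f2 and chr1:181017570-181017819 (minus) for Ephx1.
Cyp2b10: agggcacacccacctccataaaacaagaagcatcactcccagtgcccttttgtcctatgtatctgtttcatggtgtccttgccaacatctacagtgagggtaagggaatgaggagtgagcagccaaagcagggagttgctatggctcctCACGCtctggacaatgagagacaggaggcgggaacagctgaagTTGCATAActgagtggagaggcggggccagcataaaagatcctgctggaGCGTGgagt
Cyp2b13: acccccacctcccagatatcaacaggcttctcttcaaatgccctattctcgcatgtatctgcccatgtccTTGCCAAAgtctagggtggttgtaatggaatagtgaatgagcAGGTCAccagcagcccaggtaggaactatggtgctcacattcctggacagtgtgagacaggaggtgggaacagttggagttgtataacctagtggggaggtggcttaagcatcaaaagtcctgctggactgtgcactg
Cyp2f2: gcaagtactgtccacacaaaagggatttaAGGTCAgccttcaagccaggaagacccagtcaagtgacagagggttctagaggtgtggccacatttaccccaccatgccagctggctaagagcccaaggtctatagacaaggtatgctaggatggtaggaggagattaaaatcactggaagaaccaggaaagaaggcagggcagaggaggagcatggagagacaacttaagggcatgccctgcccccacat
Ephx1: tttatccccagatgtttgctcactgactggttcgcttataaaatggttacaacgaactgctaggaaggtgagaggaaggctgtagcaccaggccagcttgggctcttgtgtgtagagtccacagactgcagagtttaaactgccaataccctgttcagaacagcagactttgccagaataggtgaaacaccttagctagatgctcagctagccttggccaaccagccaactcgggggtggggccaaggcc

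Cyp2b10 had GCGTG matches from -9 to -5 and, on the other strand, from -101 to -97, and a TTGCNNAA match from -58 to -51, counted from the transcript start. Cyp2b13 had TTGCNNAA from -180 to -173 and AGGTCA from -138 to -133, and Cyp2f2 had AGGTCA from -221 to -216. The Ephx1 window held none of the 4 motifs. For each member only the first window listed was aligned end to end, so further windows of some members were not compared. In these alignments, the windows of Cyp2b10 and Cyp2b13 were 71.0% identical, the highest of 1596 pairs of members, whose median was 49.0%. None of the matches in one of these 2 windows was of the same kind and position as in the other. Among the 15 positive members past the threshold with a window, 2 held GCGTG, 2 AGGTCA, 3 TTGCNNAA and 0 TGACNNNGC. Over the 27025 genes with a window, the shares were 30.9% for GCGTG, 15.8% for AGGTCA, 10.8% for TTGCNNAA and 11.5% for TGACNNNGC. Among the 40 members with a window that did not pass, 10 held GCGTG, 8 AGGTCA, 11 TTGCNNAA and 5 TGACNNNGC. A match here is a run of letters only.

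P450s of family 2 act mainly on foreign compounds. Of their 17 members 5 passed (29.4%, against 24.4% of all probes), all positive (background 12.0%) and all at least 1.5-fold from the pool. Cyp2f2, the club cell P450 that activates naphthalene, had log2 ratios of 2.34, 1.92, 0.050, 1.91, 0.63 and 1.13 in mice 1 to 6. All mice were on the positive side, but mouse 3 was at the level of the pool. The mean was 1.33 ± 0.88 (SD, n = 6), 2.51-fold apart (limma, adjusted p = 0.0190). Without mouse 2 it was 1.21 (limma, adjusted p = 0.0647) and without mouse 4 also 1.21 (adjusted p = 0.0628), with no call in either case. Calls over all probes also fell, from 2832 to 1376 without mouse 2 and 1325 without mouse 4. A call lost in this way therefore does not show that a gene's ratio depended on that mouse. Cyp2b10, which in mouse liver is the classic target of the receptor CAR, had 1.77, 1.39, 0.47, 1.55, 1.05 and 0.72. Every mouse was positive, and the mean of 1.16 ± 0.50 kept its call whichever mouse was left out (adjusted p = 0.00618). Cyp2b13, a closely related gene with no protein-coding gene between it and Cyp2b10, had 1.42, 0.77, 0.25, 1.29, 0.60 and 0.50. Its mean was 0.80 ± 0.46 (adjusted p = 0.0125). Probes of closely related genes can bind each other's transcript, which could not be checked here, so the Cyp2b pair cannot be taken as 2 independent measurements.

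Cyp2d22 had 1.65, 1.54, 0.35, 1.29, 0.57 and 0.94, all positive, with a mean of 1.06 ± 0.53 (adjusted p = 0.00898). The other Cyp2d members did not follow it: Cyp2d13, Cyp2d26 and Cyp2d40 had means between -0.011 and 0.016 and did not pass. Cyp2s1, a P450 expressed mainly outside the liver and inducible through the aryl hydrocarbon receptor, had 1.01, 0.74, -0.057, 1.02, 0.37 and 0.47. Mouse 3 was the only one below 0. The mean of 0.59 ± 0.42 passed (adjusted p = 0.0242), but not without mouse 1 (0.51), mouse 2 (0.56), mouse 4 (0.51) or mouse 6 (0.62). The 5 Cyp2c members lay between -0.040 and 0.064 with no call, and so did Cyp2a4 at 0.028, Cyp2g1 at -0.0005 and Cyp2j9 at 0.027. Cyp2u1, measured on 4 arrays, was at -0.17 ± 0.10 (adjusted p = 0.0866). Along chromosome 7, Cyp2s1, Cyp2b10 and Cyp2b13 follow each other directly and were all positive. Cyp2a4 and Cyp2g1 lie between Cyp2b13 and Cyp2f2 and stayed near 0.

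Cyp3a13, a broad-substrate enzyme and the 1 member of family 3, had 0.92, 1.21, 0.30, 0.71, 0.84 and 0.51. The mice differed little in comparison with Cyp2f2, and the mean was 0.75 ± 0.32 (SD, n = 6, limma, adjusted p = 0.0063). It kept its call without any 1 mouse. Cyp1b1, which acts on polycyclic hydrocarbons and oestrogens and was the 1 member of family 1, had a mean of -0.045 ± 0.17 (adjusted p = 0.634).

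Family 4 P450s oxidize the end of fatty acid chains, and 5 of 9 members passed (background 24.4%), 4 positive and 1 negative. Cyp4f enzymes inactivate leukotrienes, among other substrates. Cyp4f15 had 1.07, 1.08, 0.18, 0.97, 0.72 and 0.97, so 5 mice lay close together and mouse 3 apart from them. Its mean was 0.83 ± 0.35 (limma, adjusted p = 0.00582), and 0.96 without mouse 3. Cyp4f13 was small and even, at 0.34 ± 0.11 with all 6 mice between 0.22 and 0.51 (adjusted p = 0.00552). Cyp4f14 was on the other side in all 6 mice, at -0.14, -0.12, -0.19, -0.24, -0.10 and -0.24. Its mean of -0.17 ± 0.062 passed (adjusted p = 0.0165) but not without mouse 4 (-0.16, adjusted p = 0.0594). Cyp4f13 and Cyp4f14 have no protein-coding gene between them and had opposite signs. Cyp4f16 was mixed, with -0.19 and -0.088 in mice 1 and 4 and 0.63 and 0.72 in mice 5 and 6, and did not pass (mean 0.23 ± 0.37, adjusted p = 0.226). The pseudogene Cyp4f41-ps was at -0.036.

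Cyp4b1, a P450 of lung and bladder that activates furan toxins, had 1.38, 1.31, -0.15, 0.84, 0.44 and 0.24. Mouse 3 was below 0 and the spread was wide, so the mean of 0.68 ± 0.61 lay just inside the threshold (limma, adjusted p = 0.04998). It lost the call without mouse 1 (0.54), mouse 2 (0.55), mouse 4 (0.65), mouse 5 (0.73) or mouse 6 (0.77), and kept it without mouse 3 (0.84). Cyp4a12a, a fatty acid hydroxylase, was measured in 5 mice at 0.64, 0.28, 0.55, 0.23 and 0.59 in mice 1, 3, 4, 5 and 6, all positive. Its mean was 0.46 ± 0.19 (n = 5, adjusted p = 0.0102). Cyp4a14 at 0.072 and Cyp4v3 at -0.063 did not pass. The 6 remaining P450s, of steroid, bile acid and orphan families (Cyp11b2, Cyp17a1, Cyp20a1, Cyp21a1, Cyp39a1 and Cyp8b1), had means between -0.086 and 0.052 and no call.

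Flavin-containing monooxygenases oxidize nitrogen and sulphur in drugs, and 2 of 3 members passed (background 24.4%), both positive. Fmo1 had 2.05, 1.66, 0.66, 1.19, 0.45 and 0.40, a mean of 1.07 ± 0.68 (SD, n = 6, limma, adjusted p = 0.0171). All mice were positive, and the call was lost without mouse 2 (0.95) or mouse 4 (1.04). The Fmo1 probe lies 6 numbers from the Vpreb3 probe, which had a mean of 1.19, and probes 6 numbers apart had a correlation of 0.133 across 9284 pairs. Fmo2, the main form in mouse lung, had 2.22, 1.64, 0.010, 1.13, 0.038 and 0.001. Mice 1, 2 and 4 were far from the pool and mice 3, 5 and 6 at its level, and the mean of 0.84 ± 0.97, with the largest SD of all members, did not pass (adjusted p = 0.0984). Fmo5 was small and even, between 0.19 and 0.33 in 5 mice, with a mean of 0.27 ± 0.056 (n = 5, adjusted p = 0.00836).

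Aldehyde dehydrogenases remove reactive aldehydes and make retinoic acid. Of 15 members 3 passed on the positive and 2 on the negative side (backgrounds 12.0% and 12.3%). Aldh1a1, which oxidizes retinal and is a known gene of airway secretory cells, had 2.28, 1.84, 0.68, 1.71, 0.087 and 0.24. Mice 1, 2 and 4 stood well above the others, and mouse 5 lay near the pool. The mean was 1.14 ± 0.92 (limma, adjusted p = 0.0354), with no call left without mouse 1 (0.91), mouse 2 (1.00) or mouse 4 (1.03). Aldh1a7, its close relative next to it on the chromosome, may share probe signal with it, which could not be checked. Aldh1a7 was positive in all 6 mice at 0.41, 0.40, 0.014, 0.18, 0.038 and 0.078, and did not pass (mean 0.19 ± 0.18, adjusted p = 0.0820). The retinal dehydrogenases Aldh1a2 and Aldh1a3, at -0.17 ± 0.12 (n = 5) and -0.14 ± 0.28, did not pass either.

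Aldh2, the mitochondrial acetaldehyde enzyme, had 1.43, 1.55, 0.32, 1.09, 0.43 and 0.81. All mice were positive, the mean was 0.94 ± 0.51 (SD, n = 6, limma, adjusted p = 0.0109), and the call was kept whichever mouse was left out. Aldh5a1, which clears the succinic semialdehyde formed from GABA, was at 0.52 ± 0.23 (adjusted p = 0.00754). Aldh18a1, an enzyme of proline synthesis, was negative in all 6 mice, at -0.64, -0.91, -0.097, -0.51, -0.46 and -0.26. Its mean of -0.48 ± 0.28 (adjusted p = 0.0157) was on the side of the mucous cell means, and lost its call without mouse 4 (-0.47). Aldh7a1, an enzyme of lysine breakdown, had -0.82, -0.63, 0.032, -0.42, -0.086 and -0.50. Its mean of -0.40 ± 0.32 passed (adjusted p = 0.0382), but not without mouse 1 (-0.32), mouse 2 (-0.36), mouse 4 (-0.40) or mouse 6 (-0.38). Aldh9a1, of carnitine synthesis, was at -0.24 ± 0.28 and Aldh6a1, of valine breakdown, at 0.33 ± 0.36, both with no call, though Aldh6a1 passed without mouse 3 (0.43, adjusted p = 0.0311).

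Carboxylesterases split ester drugs and lipid esters, and 2 of 4 members passed (background 24.4%). Ces1e had 1.49, 1.61, 0.41, 0.85, 0.78 and 0.83, and Ces1f had 1.00, 1.37, 0.30, 0.95, 0.63 and 1.20. Both were positive in all mice, with mouse 3 lowest. The means were 0.99 ± 0.46 for Ces1e (SD, n = 6, limma, adjusted p = 0.00727) and 0.91 ± 0.39 for Ces1f (adjusted p = 0.0061), and both kept their call without any 1 mouse. The 2 genes are direct neighbours on chromosome 8 and similar in sequence, so their probes may share signal. Ces1c, of the same cluster, was at 0.065 ± 0.077 (adjusted p = 0.267) and Ces2e at 0.15 ± 0.14 (adjusted p = 0.0902). Ces2e passed without mouse 5 (0.20, adjusted p = 0.0277).

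Carbonyl reductases reduce ketones and quinones. Cbr2, an abundant reductase of mouse lung, had 1.93, 1.81, 0.22, 1.47, 0.42 and 1.01, positive throughout and highest in mice 1 and 2. Its mean was 1.14 ± 0.71 (SD, n = 6, limma, adjusted p = 0.0161), and it was no longer called without mouse 2 (1.01) or mouse 4 (1.08). Cbr1, which also reduces prostaglandins, was at 0.26 ± 0.069 (adjusted p = 0.00593). It was the positive member past the threshold with the smallest mean. Its mice lay between 0.20 and 0.37, and mouse 3, at 0.23, did not stand apart. Cbr4 was at 0.027 and did not pass.

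Ephx1, the microsomal epoxide hydrolase that turns epoxides into diols, had the largest mean of the 75 members. Its ratios were 2.37, 2.24, 0.60, 1.81, 0.88 and 1.49, positive in 6 of 6 mice and lowest in mouse 3. The mean of 1.56 ± 0.72 was 2.96-fold apart from the pool (SD, n = 6, limma, adjusted p = 0.00685), and stayed between 1.40 and 1.76 when each mouse was left out. Ephx2, the soluble enzyme that acts on fatty acid epoxides, was at 0.18 ± 0.24 (adjusted p = 0.162) and Ephx3 at -0.052 ± 0.061 (n = 5, adjusted p = 0.403).

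None of the 10 aldo-keto reductases or 3 alcohol dehydrogenases passed (limma, background 24.4%), although 2 and 1 of them had an unadjusted p under 0.05. Within the aldo-keto reductases, the largest means were those of Akr1c14, a steroid reductase, at 0.31 ± 0.41 (n = 5, adjusted p = 0.175), Akr1b10 at 0.12 ± 0.12 and the bile acid reductase Akr1d1 at 0.10 ± 0.070 (n = 5). Adh5, which oxidizes formaldehyde bound to glutathione, was at 0.13 ± 0.13 (adjusted p = 0.107). It passed without mouse 4 (0.18, adjusted p = 0.0434), which was the only mouse below 0. Adh4 was at 0.019 and Adh6a at -0.0035. Several of these genes are known mainly from liver, and a ratio near 0 does not say how strongly a gene is expressed in lung.

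The mice ordered themselves alike in many positive members. Among the 18 positive members past the threshold that were measured in every mouse, mouse 1 was highest in 11 and mouse 3 lowest in 14. The median of the 20 positive members was 1.40, 1.37, 0.29, 1.00, 0.45 and 0.59 in mice 1 to 6. The SD over all probes of an array followed a similar course, at 0.47, 0.42, 0.21, 0.36, 0.32 and 0.37, and its part in the order was not tested. The same 23 members passed when the arrays were scaled to an equal spread, which concerns their means and not the order of the mice.

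The members differed in how far mice 5 and 6 were from mouse 1. For Aldh1a1 the ratio of mouse 1 exceeded that of mouse 5 by 2.20 and that of mouse 6 by 2.04, for Cyp2f2 by 1.72 and 1.21, and for Fmo1 by 1.59 and 1.65. For Cyp4f15 the differences from mice 5 and 6 were 0.36 and 0.10, and for Cyp3a13 0.072 and 0.40. For Ces1f they were 0.37 and -0.20, so mouse 6 lay above mouse 1. Cbr1 was the 1 positive member past the threshold with a lower value in mouse 1 than in mouse 5. These differences compare single mice and carry no test.

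**Figure D3:**
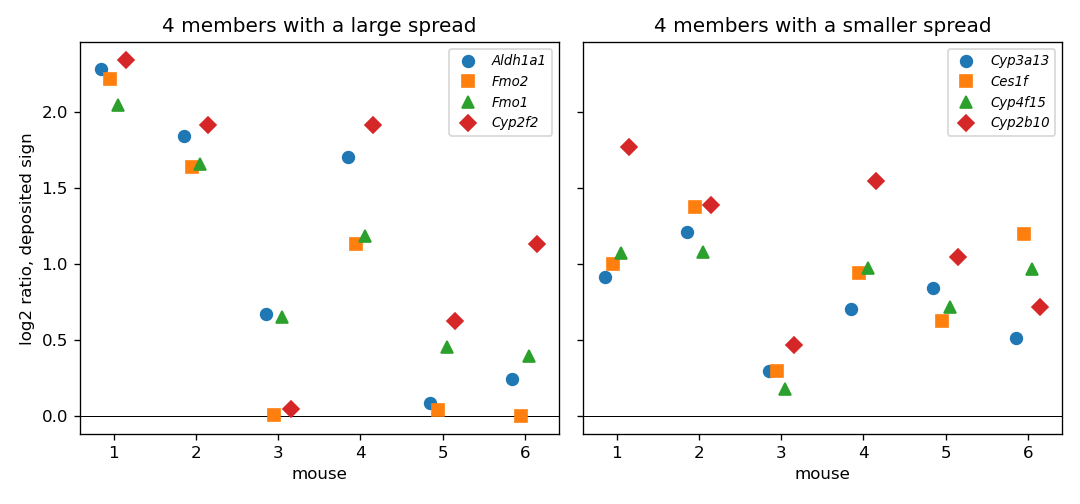
Log2 ratio (y axis, deposited sign) of 8 members in mice 1 to 6 (x axis), chosen after their values were seen. On the left, Aldh1a1, Fmo2, Fmo1 and Cyp2f2 reach 2.05 or more in mouse 1. Fmo2 is at 0.038 or below in mice 3, 5 and 6. On the right, Cyp3a13, Ces1f and Cyp4f15 stay between 0.51 and 1.37 in the 5 mice other than mouse 3. Cyp2b10, also on the right, runs wider, from 1.77 in mouse 1 to 0.72 in mouse 6 and 0.47 in mouse 3.

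Marker lists of other cell types differed in sign. Over all probes tested, 12.0% were positive and 12.3% negative past the threshold. A different number of cells of a type and a different amount of RNA per cell cannot be told apart in whole lung RNA. Of 13 measured club cell markers outside the member families, 5 were positive and 3 negative past the threshold, with a median of 0.12. The negative ones were Pigr at -0.31, Sftpd at -0.23 and Bpifb1 at -0.18. Tff2 had the lowest mean of the list, at -0.92 ± 0.86 (n = 5, limma, adjusted p = 0.0739), and did not pass. The positive ones were Bpifa1 at 1.62, Krt15 at 1.03, Scgb3a1 at 0.65, Lypd2 at 0.62 and Scgb1a1. Scgb1a1, the defining club cell secretoglobin, had 1.44, 1.78, 0.74, 1.29, 1.33 and 1.70, a mean of 1.38 ± 0.37 (limma, adjusted p = 0.0028). All 6 mice were well above 0, mouse 3 lowest. Of 10 heart muscle markers 9 passed, all positive, with medians by mouse between 0.10 and 1.94. Of 9 adipocyte markers 5 passed, all positive, with medians between 0.19 and 1.27. None of 7 hepatocyte markers passed (Alb at 0.43 ± 0.55, n = 5, limma, adjusted p = 0.158). Of 7 mucous cell markers 4 passed, all negative, with medians between -2.52 and 0.18, mouse 3 having the 1 above 0. Of 5 alveolar type 2 markers, 1 passed on each side (Sftpc at 0.60, Sftpa1 at -0.61). Of 10 ciliated cell markers 3 were positive and 1 negative, led by Tppp3 at 0.68 ± 0.54 (adjusted p = 0.0352). Of 9 macrophage markers 5 passed, all negative, led by Fcgr1 at -1.87 ± 1.00 (adjusted p = 0.0102). Ratios give no level, so the presence or absence of these cells cannot be read from them, and their part in the members' ratios was not tested.

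**Figure D4:**
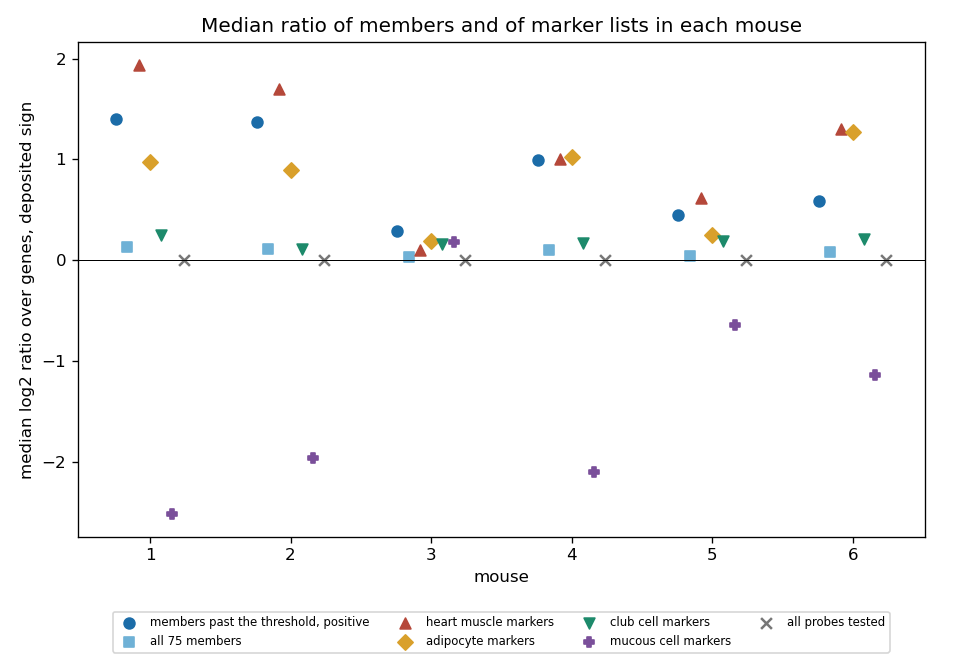
Median log2 ratio over genes (y axis, deposited sign) in each mouse (x axis) for members and for marker lists. The positive members past the threshold are at 1.40 in mouse 1 and 0.29 in mouse 3, and the heart muscle markers at 1.94 and 0.10. All probes are at -0.003 and 0.001, values that centring each array on its median sets near 0.

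Of the genes that serve these enzymes, 14 electron donors and haem genes were measured, with 4 positive and 2 negative calls (backgrounds 12.0% and 12.3%). Cyb5r3 and Cyb5a, which pass electrons to P450s and desaturases, were at 0.59 ± 0.20 (SD, n = 6, limma, adjusted p = 0.00462) and 0.55 ± 0.38 (adjusted p = 0.0233). Hmox1, which degrades haem, was on the other side at -0.94 ± 0.61 (adjusted p = 0.0182), as was the reductase Cyb5r4 at -0.33. Among 17 receptors and regulators, 4 were positive and 2 negative, beside the same backgrounds. The clock output factors Tef and Dbp, which control P450 genes in mouse liver, were at 0.64 ± 0.40 (n = 5, adjusted p = 0.0242) and 0.52 ± 0.20 (adjusted p = 0.00552). Cebpa and Nr1i3, which encodes the receptor CAR, were negative at -0.48 ± 0.30 (adjusted p = 0.0170) and -0.48 ± 0.27 (adjusted p = 0.0142). The remaining positive calls were Arnt at 0.35 ± 0.14 (limma, adjusted p = 0.00737) and Rxrg at 0.30 ± 0.13 (adjusted p = 0.0103). The aryl hydrocarbon receptor Ahr at 0.15 and Nfe2l2, the activator of antioxidant genes, at -0.040 had no call.

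Conjugating enzymes and their antioxidant companions, with Gstz1 (0.57 ± 0.45, limma, adjusted p = 0.0339) as the 1 glutathione transferase among them, had 5 positive and 6 negative calls among 27 measured genes. Inmt, a methyltransferase abundant in lung, was at 1.22 ± 0.85 (SD, n = 6, limma, adjusted p = 0.0229) and the sulphotransferase Sult1a1 at 1.17 ± 0.76 (adjusted p = 0.0180). Gclc, of glutathione synthesis, was at -1.13 ± 0.59 (adjusted p = 0.00993) and Sult1d1 at -0.91 ± 0.65 (adjusted p = 0.0243). The calls were split by sign, where the members past the threshold were mostly positive. Over all probes, 12.0% had a positive and 12.3% a negative call. Of 6 efflux transporters Abcb1a alone passed, at 0.72 ± 0.32 (adjusted p = 0.00698). Of 13 other retinoid genes 3 were positive and 1 negative, with Lrat, which stores retinol as esters, at -0.28, and Dhrs3, Rdh5 and Rbp7 at 0.25, 0.20 and 0.18.

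Of the 107 genes 32 fell short of 4 arrays and were not tested. No array had a value for 20 of them, which include well-known phase I genes: Cyp1a1, Cyp2e1, Cyp3a11, Cyp26a1, Cyp2b9, Cyp2c29, Adh1, Adh7, Aldh3b1 and Cbr3. Nothing can be said of these genes. The other 12 had values on 1 to 3 arrays. Just inside the limit, Cyp2u1 and Cyp4a14 had 4 values each with means of -0.17 and 0.072. Just outside it, Akr1c18 had 3 deposited values, 0.16, 0.65 and 0.22 in mice 3, 4 and 6.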

How the data were processed

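The data are 1 table of 17280 probes by 6 arrays. Its values are log ratios as the authors deposited them, read here as log2; neither labels nor header state the scanner, background correction, normalization, spot filter, dyes, log base or direction. Gene names come from the platform annotation, 14722 probes with 1 symbol, of which 14445 were updated through RefSeq (GRCm38.p6, names and gene order). The 170 rows repeating 10 sequences and 4 plant rows were left out. Arrays were centred on their medians, between -0.012 and 0.008, and measured 10922 to 13132 probes each. Correlations between arrays lay between 0.168 and 0.861, those of mouse 3 at 0.417 or below.

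For probes with values on at least 4 arrays, limma (version 3.58.1, R version 4.3.3) fitted an intercept and compared it with 0 (eBayes, two-sided). The fit was tested on simulated data. Promoters were searched in Python 3.11.15 and aligned with Biopython 1.88; figures used matplotlib 3.10.9. Named were the 15 members of largest positive and all of negative mean past the threshold, up to 3 others per family, the 5 of largest SD and up to 4 genes per list; other names were chosen after their values were seen. Members and lists were chosen with earlier results of these data known. Alternatives were other centring, scaling, normalization, array minimums, array weights, robust eBayes, probe averaging, a 1.5-fold floor and leaving out each mouse. Omitting probes 6, 18 or 24 numbers from a stronger one was chosen after seeing the data.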

Additional observations from a re-analysis of the deposited data

Results flagged for a closer look

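Among 36 named members, 2 had 1 mouse far from the others, by a test on gaps between sorted values that flags about 1 group in 20 by chance. Ces2e was at -0.11 in mouse 5 and between 0.137 and 0.273 in the other mice. Adh5 was at -0.112 in mouse 4 and between 0.121 and 0.252 in the others. Neither gene passed the threshold over the 6 mice.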

How the results depend on the processing

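The 20 positive members became 14 to 21 when each mouse was left out, and the 3 negative ones 0 to 3, with 0 left without mouse 4. Over all probes, leaving out each mouse gave 1325 to 3036 calls in place of 2832: 1325 without mouse 4, 1376 without mouse 2 and 1708 without mouse 6. With a floor of 1.5-fold, 568 probes and 0 negative members remained. The same 23 members passed without centring, with scaled or quantile-normalized arrays, with array weights and with averaged probes. Cyp4b1 lost its call with robust eBayes (adjusted p = 0.0523) and with probes on at least 3 arrays (adjusted p = 0.0524). Without probes beside a stronger one, Cyp4b1 had adjusted p = 0.0502, and Fmo1 was among those omitted. With probes on all 6 arrays Cyp4a12a and Fmo5 could not be tested. No member changed sign with a call on either side, and the median of the members' means stayed between 0.0408 and 0.0702. With 6 arrays, members of wide spread, such as Fmo2, are those for which precision is most limited.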
